A study of Homo sapiens with 4 samples.

Results

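A circular RNA (circRNA) is a transcript closed into a ring when the end of a downstream exon is spliced back to the start of an upstream one. The set described here comprises the circRNAs with a low number in circBase, a public catalogue that gives human circles an identifier of the form hsa_circ_ with a 7-digit number. Members were the identifiers numbered below 10000 with at least 1 count over 4 libraries, less 7 circles that the rule leaves out. There were 4270 such circles among 29586 identifiers with a count (14.4%). The range was set by catalogue numbers and detection, not by the treatment. The 7 circles were left out by identifier, and the set was chosen with earlier results of these data known.

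Circular RNAs lack free ends, so exonucleases that degrade linear RNA spare them, and most are made by the spliceosome from the exons of protein-coding genes. A few have been described as binding microRNAs or proteins, while most have no known function. Their level depends on transcription of the host gene, on how often its exons are back-spliced and on the long life of the ring. A circBase number is a catalogue entry and carries no function.

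MiaPaCa-2 and PANC-1 are established epithelial lines, each grown from a human pancreatic carcinoma. Thymoquinone (TQ) is a quinone of black seed, and the study asked whether it changes circRNA levels in these cells. TQ was given for 24 h at 20 µM to MiaPaCa-2 and at 10 µM to PANC-1, each beside a control of the same line, so dose and line cannot be told apart. Each line and treatment had a single library, with no genetic change named in the labels, and the counts were of reads across back-splice junctions after removal of ribosomal RNA and digestion of linear RNA by ribonuclease R. Because linear RNA was removed, markers of the cell type could not be checked. A lower count in 1 library can come from fewer circles per cell or from less circular RNA in that library, and these cannot be told apart.

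Libraries held 45094 back-splice counts in MiaPaCa-2 control and 15819 with TQ, and 48631 and 67964 in PANC-1 control and TQ. Values listed in a row of 4 below follow this order. MiaPaCa-2 TQ stands apart as the smallest library, and its values rest on the fewest counts. Whether the small total bears on the MiaPaCa-2 ratios was not tested.

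The members held between 43.1% and 45.7% of all back-splice counts in each library, although they were a small share of the identifiers. Their counts were 20618 and 7038 in control and TQ of MiaPaCa-2, and 20956 and 29822 in those of PANC-1. As shares of each library these were 45.7% (95% Clopper-Pearson interval 45.3 to 46.2), 44.5% (43.7 to 45.3), 43.1% (42.7 to 43.5) and 43.9% (43.5 to 44.3). All such intervals cover counting error only, since each line and treatment had a single library. They take each count as independent, and PCR copies were not removed, so they may be too narrow. The 4 shares lay within a few points of each other, with MiaPaCa-2 control highest and PANC-1 control lowest. Of the counts that belonged to any circBase identifier, the members took 65.2%, 65.3%, 62.5% and 62.8% in the same order.

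Per circle, the members were far more abundant than the larger classes of identifier named below. The 7 low numbers left out by the rule had 520 counts on average and 1.75% to 2.59% of each library, and are not among the members. A member had 18.4 counts on average over the 4 libraries and a median of 7. The 9644 circBase circles numbered 10000 and above had 4.28 counts on average and a median of 2. The 11927 exonic circles without a circBase number had 3.72 counts on average, and the 3708 identifiers that start with ciRNA, the usual prefix for intronic circles, had 2.62. At least 10 counts were reached by 40.6% of members, against 8.70% of the higher circBase numbers. Of the 174 identifiers with at least 100 counts in the whole table, 132 were members. The table also listed identifiers at 0 in every library, and 73.8% of the 5798 listed low numbers had a count, against 44.3% of the listed circBase numbers from 10000 upward.

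Most members were nonetheless rare. A single count over all 4 libraries was all that 600 members (14.1%) had, and another 1935 (45.3%) had 2 to 9 counts. These groups together made up the larger part of the list but held 0.765% and 11% of its counts. The 1603 members with 10 to 99 counts held 56.3%, and the 132 with at least 100 held 31.9%. In the median detected member there were 4 counts in the MiaPaCa-2 control, 3 with TQ, and 4 and 4 in the same order in PANC-1. For a member at 0, a floor of 3 counts allows a share of up to 0.00665%, 0.0190%, 0.00617% and 0.00441% of the library in the same order.

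**Figure D1:**
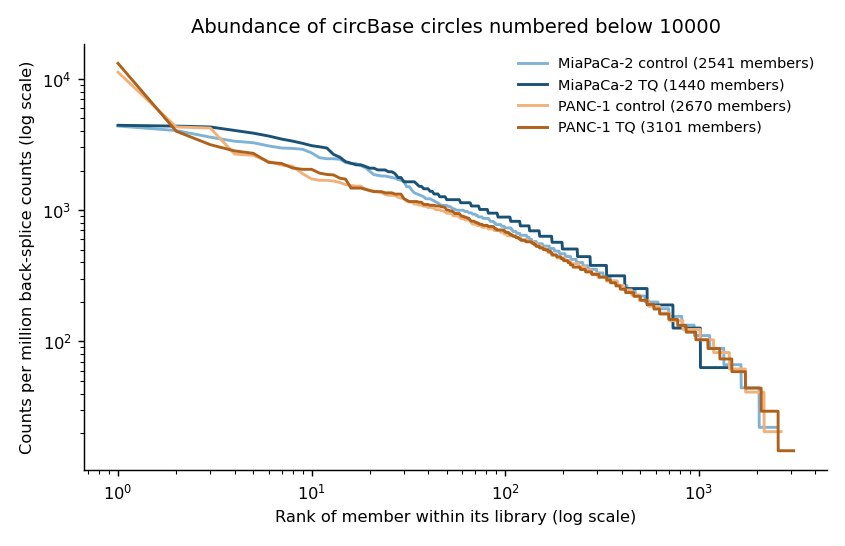
Abundance of the circBase circles numbered below 10000 by rank in each library. The x axis is the rank of a member among those detected in that library and the y axis its counts scaled by the library total (per 1e+06 back-splice counts), both on log scales; the 4 curves run close together over most ranks, with those of MiaPaCa-2 somewhat higher near rank 10; at rank 1 hsa_circ_0001006 stands above the rest in both PANC-1 libraries with 546 and 891 counts, and the steps at the right end are single counts.

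The most abundant member was hsa_circ_0001006, with 182 counts in MiaPaCa-2 control and 61 with TQ, and 546 and 891 in PANC-1. It was the highest member of both PANC-1 libraries, and the PANC-1 values exceeded the MiaPaCa-2 values severalfold. The next, hsa_circ_0001821, had 151, 68, 209 and 271 counts, and hsa_circ_0000448 had 147, 69, 205 and 214. Neither reached a 2-fold difference between the lines or between TQ and control. Ranks here compare reads over 1 junction per circle, and the lengths of the circles are not used.

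A pair of the 10 most abundant members are in the fixed list of circles with a remembered host gene described below. The table names no hosts, and these were not checked against circBase here. Hosts of the others among the 10 were not looked up. The fourth, hsa_circ_0000437, is known as a circle of CORO1C, a coronin that binds actin filaments, and had 111 and 53 counts in control and TQ of MiaPaCa-2, and 130 and 192 in those of PANC-1. The sixth, hsa_circ_0001017, is known as a circle of XPO1, the exportin that carries proteins with a nuclear export signal out of the nucleus, and had 134, 51, 114 and 157 counts in that order. Both circles were thus near the same share of the library in both lines. The others among the 10 were hsa_circ_0001847, hsa_circ_0001009, hsa_circ_0001016, hsa_circ_0005954 and hsa_circ_0008039.

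Counts were spread over many members rather than held by a few. The 10 highest members of each library took 7.27% and 8.50% of the member counts in control and TQ of MiaPaCa-2, and 8.20% and 8.33% in those of PANC-1. Reaching 50% of the member counts took 269, 187, 304 and 305 members in the same order. The smallest library needed the fewest members, and its detected list was also the shortest.

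Members detected numbered 2541 and 1440 in control and TQ of MiaPaCa-2, and 2670 and 3101 in those of PANC-1. That order follows the totals, so the libraries were also compared at the smallest total by the hypergeometric expectation. At 15819 counts the expected numbers were 1893, 1440, 1939 and 2021. MiaPaCa-2 TQ remained lowest, at 0.761 of its control, while PANC-1 TQ was at 1.04 of its own. For members with at least 2 counts at that total, the expected numbers were 1181, 1021, 1181 and 1171, so that MiaPaCa-2 TQ was at 0.864 of control and PANC-1 TQ at 0.992. Over all identifiers the same library had 5089 detected against 6659 expected in its control, but 2869 against 2786 with at least 2 counts. The lower detection in MiaPaCa-2 TQ therefore held for members under both measures and for all identifiers only under the first.

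Sharing between the lines was common. Of the 4270 members, 2346 (54.9%) had a count in both lines, 554 in MiaPaCa-2 only and 1370 in PANC-1 only. All 4 libraries held 828 members (19.4%). In comparison, 23.6% of the circBase circles numbered 10000 and above, 10.4% of the exonic circles without a number and 7.77% of the ciRNA identifiers were counted in both lines. Abundance and sharing went together within the members as well. Of those with 2 to 9 counts, 42.9% were in both lines, of those with 10 to 99 counts 86.5%, and of the 132 with at least 100 counts 130.

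Since abundance differed between the classes, sharing was compared at equal counts in one line. Among circles with a single count in MiaPaCa-2, 64.1% of members were counted in PANC-1, against 38.0% of the higher circBase numbers and 27.6% of all identifiers. With 5 to 9 counts in MiaPaCa-2 the shares were 88.5% of members (95% interval 85.7 to 90.9) and 74.6% of the higher numbers (70.6 to 78.3). The intervals overlapped at 10 to 19 counts, where 93.2% (90.1 to 95.5) of members and 90.2% (83.9 to 94.7) of the higher numbers were shared. All 88 members with at least 50 counts in MiaPaCa-2 had a count in PANC-1. In the other direction, 35.6% of members with 1 count in PANC-1 were counted in MiaPaCa-2, against 18.9% of the higher numbers. With 20 to 49 counts in PANC-1 these were 90.8% (87.6 to 93.3) and 75.2% (66.2 to 82.9). With at least 50 they were 95.4% (91.5 to 97.9) and 74.2% (55.4 to 88.1), so from PANC-1 the intervals stayed apart at these counts. The shares of members were lower in each class of counts than from MiaPaCa-2 to PANC-1, and the MiaPaCa-2 libraries were also the smaller pair.

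**Figure D2:**
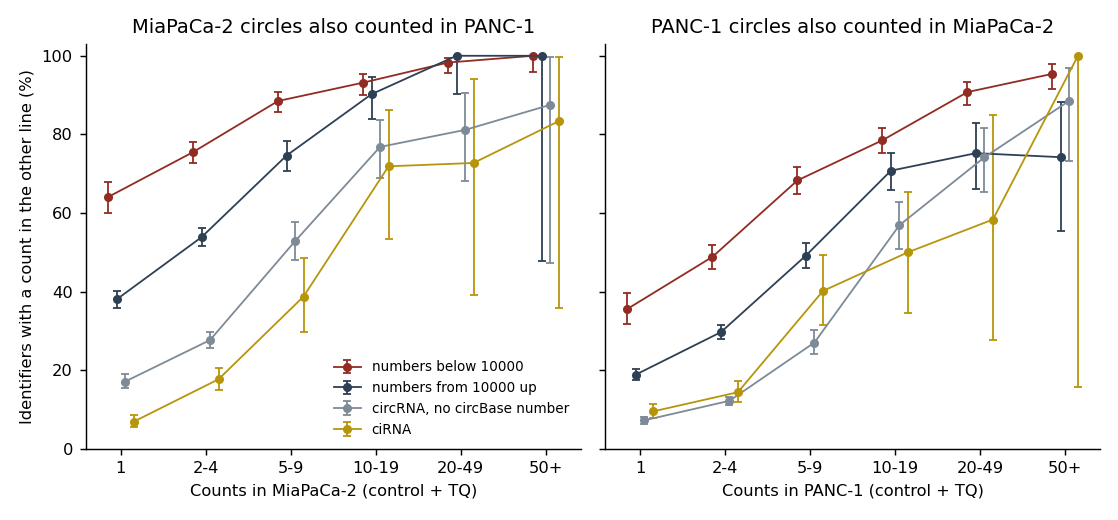
Share of identifiers counted in one line that were also counted in the other, by their counts in the first line. The y axis is the percent with a count in the other line, bars are 95% Clopper-Pearson intervals and colours are the classes of identifier; from 1 to 9 counts in MiaPaCa-2 or PANC-1 the members, at 64.1% and 35.6% for a single count, lie above the other classes.

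A minority of well-counted members appeared in 1 line. In MiaPaCa-2, 30 of 700 members with at least 10 counts were at 0 in both PANC-1 libraries (4.29%, against 8.76% of all identifiers with that many counts). In PANC-1, 189 of 1274 were at 0 in both MiaPaCa-2 libraries (14.8%, against 22.5%). Of those 189, 167 were counted in both PANC-1 libraries. The highest in MiaPaCa-2 was hsa_circ_0004161, with 43 counts in control and 5 in TQ, followed by hsa_circ_0001742 with 29 and 5. In PANC-1 the highest were hsa_circ_0002153, with 63 counts in control and 52 in TQ, and hsa_circ_0008549 with 46 and 55. With a 0 set to a floor of 3 counts, hsa_circ_0002153 was 21-fold higher in PANC-1 between the control libraries (lower 99% limit 11.4). On the same footing hsa_circ_0004161 was 14.3-fold lower (upper limit of the ratio 0.131). Folds of this kind are not minimums, since the 99% limits lie nearer 1.

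Levels of the members were most alike within PANC-1. Over the 828 members counted in all 4 libraries, Pearson's r of log2 counts was 0.80 between the PANC-1 libraries and 0.66 between the MiaPaCa-2 libraries. Between the lines it ran from 0.49 to 0.62. Among the 132 members with at least 100 counts in total, r was 0.87 within PANC-1 and 0.73 within MiaPaCa-2 but 0.02 to 0.08 between the lines. These correlations are across circles, which are not replicates, and choosing members by their summed counts itself lowers the value between lines. The PANC-1 libraries were also the largest pair and MiaPaCa-2 TQ the smallest library, and the bearing of depth on r was not tested.

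Within the list, the lowest numbers stood out. Members numbered below 2000 were 679 circles, 15.9% of the list, and held 31.4% of its counts. They had 36.3 counts per member and a median of 12, against 15.0 and 6 for the 3591 members numbered from 2000 upward. At least 10 counts were reached by 55.7% of the first and 37.8% of the second, and 63 of the 132 members with at least 100 counts had a number below 2000. The step was sharp, and the cut at 2000 lies at it in these same counts, while only bands of 1000 numbers were planned. Counts per member were 31.4 and 40.3 in the first and second band of 1000 numbers, and between 11.8 and 17.0 in each of the later 8. The share of member counts taken by numbers below 2000 was 32.1% in the MiaPaCa-2 control, 32.3% with TQ, and 31.0% and 31.0% in the same order in PANC-1, so it barely differed with line or treatment.

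For TQ against control, ratios were normalised with TMM library scales. A circle was counted as higher or lower where the 2 libraries held at least 10 counts for it, the change was 2-fold or more in either direction, and 1 lay outside the 99% interval of the ratio (exact, conditional binomial). With 1 library per arm this is a rule of size, with no replicate check and no p-value.

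In MiaPaCa-2, 700 members could be assessed. Of these 19 were higher in TQ and 45 lower, which is 9.14% of them, and of all 1130 identifiers assessed 10.5% met the rule (3.98% higher and 6.55% lower). The share of members meeting the rule was thus near that over all identifiers, which include the members. The median log2 ratio, with 1 count added to each library, was -0.20 for members and -0.13 for all identifiers assessed, and the central 50% of members ran from -1.16 to 0.56. The direction of that median depends on the scaling. With total counts as the scale it was 0.05 for members and 0.12 for all identifiers, and with TMM over every identifier -0.69 and -0.62. The split of members was 43 higher and 28 lower with totals, 17 and 73 with DESeq2 size factors, and 11 and 120 with TMM over every identifier. Of the 19 higher and 45 lower members, 11 and 28 met the rule under each of these 4 scalings.

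Many of the lower calls in MiaPaCa-2 were circles with no count at all in TQ. This was so for 24 of the 45, which had between 16 and 47 counts in control, and 23 of those 24 were counted in PANC-1. The interval lay farthest from 1 for hsa_circ_0008359, followed by hsa_circ_0001696, which tied with hsa_circ_0001882 at 39 and 0 counts. hsa_circ_0008359 had 47 counts in MiaPaCa-2 control and 0 with TQ, and 42 and 53 in PANC-1. With its 0 set to the floor of 3 counts it was 6.55-fold lower in TQ in MiaPaCa-2 (upper 99% limit of the ratio 0.285). Its ratio in PANC-1 was 0.911. hsa_circ_0001696, with 39, 0, 31 and 32 counts, was 5.43-fold lower against the floor (upper limit 0.348). Only the MiaPaCa-2 TQ library lacked hsa_circ_0008359 and hsa_circ_0001696.

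The 19 higher members in MiaPaCa-2 had 10 to 62 counts over both libraries, with a median of 17, and 3 had 0 in control. The farthest from 1 was hsa_circ_0005800, with 12 counts in TQ and 0 in control (9.57-fold higher against the floor, lower 99% limit 4.31). hsa_circ_0004566 followed with 10 and 0 (7.97-fold, lower limit 3.42), and tied with hsa_circ_0007234 at the same counts. In PANC-1 control and TQ, hsa_circ_0005800 had 1 and 2 counts and hsa_circ_0004566 had 16 and 13.

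Among the 31 members with at least 100 counts in MiaPaCa-2, none was higher and 8 were lower. The same rule called 24.4% of the 41 identifiers of that size lower and 2.44% higher. Their ratios ran from 0.305 to 1.93 with a median of 0.910, and 23 lay within 2-fold of 1. The number depends on the scaling, with 4 lower and 2 higher for total counts and 10 lower for DESeq2 size factors. Of the 8, 4 were lower under all 4 scalings. The highest of the 8 was hsa_circ_0001009, with 197 and 36 counts in control and TQ of MiaPaCa-2, and 60 and 92 in those of PANC-1. For MiaPaCa-2 its ratio was 0.437 (99% interval 0.263 to 0.693), while that of PANC-1 was 1.11 (0.716 to 1.73). Scaled by total counts the MiaPaCa-2 ratio was 0.521, within 2-fold, and the call was lost. None of the 8 met the rule in PANC-1, where their ratios ran from 0.963 for hsa_circ_0001535 to 1.42 for hsa_circ_0001839.

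In PANC-1, 1274 members could be assessed. Of these 63 were higher in TQ and 35 lower, 7.69% of them, against 8.87% of all 2289 identifiers assessed (5.68% higher and 3.19% lower). Here too the share of members was near that over all identifiers, members included. The median log2 ratio was -0.05 for members and -0.05 for all identifiers, and the middle 50% ran from -0.47 to 0.53. Under the other scalings the members' median lay between -0.07 and 0.15, and all 63 higher calls were made under each of the 4, as were 27 of the 35 lower ones.

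Most of the higher calls in PANC-1 were circles with 0 counts in control. There were 46 of these, with 10 to 37 counts in TQ and a median of 11, and 27 of the 46 were counted in MiaPaCa-2. The 2 farthest from 1 were counted in the PANC-1 TQ library alone. hsa_circ_0004435 had 37 counts there (at least 8.91-fold higher, lower 99% limit 4.69) and hsa_circ_0007941 had 36 (at least 8.66-fold, lower limit 4.55). The 2 lower circles farthest from 1 were in PANC-1 control alone. hsa_circ_0003287 had 25 counts (11.5-fold lower against the floor, upper limit 0.170) and hsa_circ_0004721 had 21 (9.69-fold lower, upper limit 0.207). Each of these 4 was thus seen in 1 library of 4.

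Abundant members mostly lay near 1 in PANC-1. Of the 67 with at least 100 counts over both libraries, 64 lay within 2-fold of 1, with a median ratio of 1.07 and a range from 0.457 to 2.28. The 3 beyond it, singled out after their values were seen, were hsa_circ_0001278 and hsa_circ_0008301, which were higher, and hsa_circ_0005598, which was lower with a ratio of 0.457 that became 0.526, and lost the call, with TMM over every identifier. For all 90 identifiers of that size the rule called 2.22% higher and 1.11% lower.

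**Figure D3:**
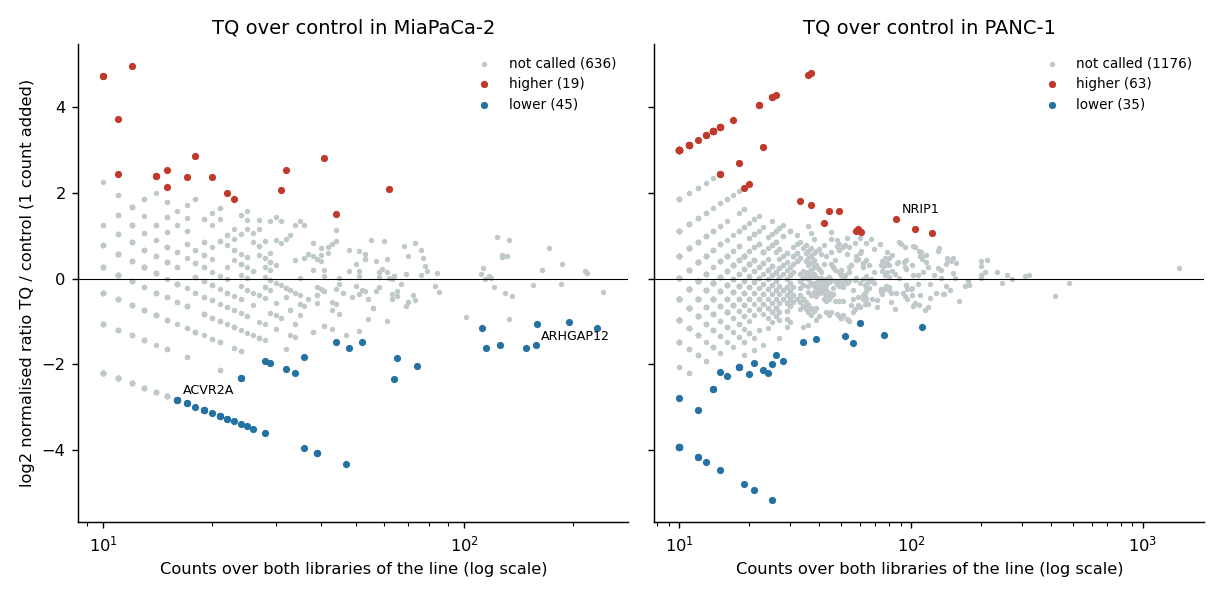
TQ over control for each assessed member in MiaPaCa-2 (left) and PANC-1 (right). The x axis is the counts over both libraries of the line on a log scale, the y axis the log2 normalised ratio with 1 count added to each library, and colours mark members that met the rule of size; in PANC-1 members with at least 100 counts lie close to 0 with 3 beyond 2-fold, in MiaPaCa-2 8 of them are lower, and the outer rows of points at low counts are circles with 0 in one library.

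Circles at 0 in one library where at least 10 counts would be expected from the other were counted separately. In MiaPaCa-2, 439 members had an expected count of at least 10 in one library, given the other library and the scales, and 33 of these (7.52%) were at 0. Of the 33, 8 were at 0 in TQ and 25 in control. With a TQ scale of 0.418 of control, a few counts in TQ suffice for an expected 10 in control. Over all identifiers the share was 14.5%, with 15 at 0 in TQ and 97 in control. In PANC-1 it was 37 of 800 members (4.63%), 18 at 0 in TQ and 19 in control, against 9.03% of all identifiers. Such zeros were therefore seen in both lines and for members at a lower share than over all identifiers.

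Few members met the rule in both lines. Of the 546 members assessed in both lines, none was higher in both and 1 was lower in both. Over all 777 identifiers assessed in both, 0.386% were higher in both and 0.386% lower in both. The member lower in both was hsa_circ_0008344, with 23 counts in the MiaPaCa-2 control, 0 with TQ, and 19 and 0 in the same order in PANC-1. It was counted in both controls and in neither TQ library. Against the floor it was 3.20-fold lower in MiaPaCa-2 (upper 99% limit of the ratio 0.620). In PANC-1 it was 8.77-fold lower (upper limit 0.232).

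One member went opposite ways, where 0.515% of all identifiers were lower in MiaPaCa-2 and higher in PANC-1 and 0.129% the reverse. hsa_circ_0001278 had 60 counts in MiaPaCa-2 control and 4 with TQ, and 25 and 79 in PANC-1. The control was the higher library in MiaPaCa-2 and the lower one in PANC-1. For MiaPaCa-2 its ratio was 0.159 (99% interval 0.0259 to 0.539), while that of PANC-1 was 2.28 (1.26 to 4.37), and both calls held under each scaling. The ratio in MiaPaCa-2 divided by that in PANC-1 was 0.0721 (exact conditional 99% interval 0.0105 to 0.289). Because the circle was picked for its opposite calls, this interval adds no separate support. Of 543 members for which this quotient of ratios could be formed, it was above 1 by the same rule for 19 and below 1 for 41. Over all 772 identifiers these were 3.63% and 8.03%.

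Only the lines replicate the treatment. A quasi-likelihood test in edgeR (line and treatment as terms, 1 residual degree of freedom) was made on 827 identifiers, of which 560 were members. No member passed a false discovery rate of 0.05 for TQ (0% of all identifiers did), and 1 was higher and 1 lower at an unadjusted p under 0.05, among 5 of all identifiers. DESeq2 also called none, with 2 higher and 3 lower unadjusted, among 16 of all identifiers. The member with the lowest p among those higher was hsa_circ_0008039. It had 75 and 58 counts in control and TQ of MiaPaCa-2, and 40 and 92 in those of PANC-1, with ratios of 1.85 (99% interval 1.16 to 2.94) and 1.66 (1.01 to 2.80). Its log2 change was 0.81, with an adjusted p of 0.998 by edgeR. Next came hsa_circ_0000722, with 34, 26, 25 and 64 counts and ratios of 1.83 and 1.85. Both circles had the higher normalised value in TQ in each line, below 2-fold. Among those lower, hsa_circ_0008344 came first, followed by hsa_circ_0004405 with 12, 2, 38 and 18 counts and ratios of 0.399 and 0.342.

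A larger share of members met the rule between the lines than between TQ and control, though the comparisons differ in depth and the gap was not tested. Between the controls 1068 members could be assessed, of which 150 were higher in PANC-1 and 138 lower, 27% of them. Over all 1811 identifiers the rule called 28.6% (15.5% higher and 13.1% lower). Between the TQ libraries, whose doses differ, 122 of 963 members were higher in PANC-1 and 88 lower, against 12.4% and 9.01% of all identifiers. Of 753 members assessed in both, 62 were higher in PANC-1 in both and 37 lower in both, against 8.91% and 4.8% of all identifiers, and 2 went opposite ways. The 62 were 46.6% of the members higher between controls and 53.9% of those higher between TQ libraries, within the 753. Among the 38 members with at least 100 counts over the controls, 5 were higher in PANC-1 and 10 lower, against 20.8% and 30.2% of the 53 identifiers of that size. Of the TQ library calls, 66 higher and 45 lower were made under all 4 scalings. Of the control calls 136 and 132 were.

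The edgeR test over both treatments called no member between the lines either (0.121% of all identifiers passed), with a lowest adjusted p of 0.179 and with 49 members higher and 42 lower in PANC-1 at an unadjusted p under 0.05, as had 149 of all 827 identifiers. DESeq2 called 16 of 911 members higher and 5 lower in PANC-1, and 2.7% of all 1480 identifiers in its test. The members with the lowest p had clear separation of the counts. hsa_circ_0008719 had 3 counts in the MiaPaCa-2 control, 3 with TQ, and 107 and 139 in the same order in PANC-1. Its ratio of PANC-1 to MiaPaCa-2 was 35.7 (99% interval 9.39 to 322) between controls. hsa_circ_0002137 was the converse, with 76, 37, 5 and 8 counts and a ratio of 0.0658 (0.0137 to 0.198). hsa_circ_0008922 had 80, 47, 12 and 24 counts and a ratio of 0.150 (0.0589 to 0.325). The top member hsa_circ_0001006 was 3.0-fold higher in PANC-1 between controls (2.41 to 3.77), with an edgeR log2 difference of 1.86 (SE 0.22, adjusted p = 0.179). In these 4 the lines did not overlap in normalised level, and TQ and control of a line lay within 2-fold or, for hsa_circ_0008719 in MiaPaCa-2, at 3 counts each.

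**Figure D4:**
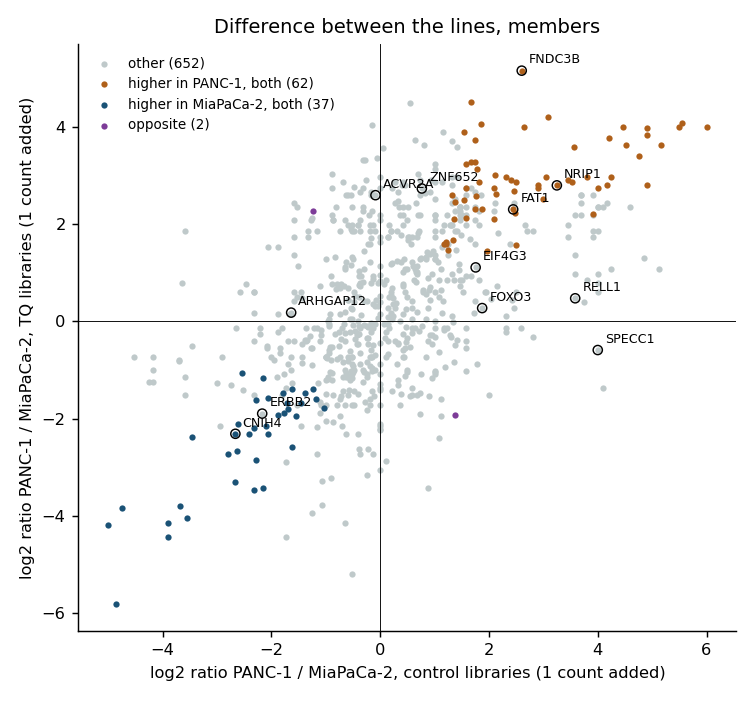
Difference between the lines for the 753 members assessed in both comparisons. The x axis is the log2 ratio of PANC-1 to MiaPaCa-2 between control libraries and the y axis the same between TQ libraries, with 1 count added; 62 members are higher in PANC-1 in both, 37 lower in both and 2 opposite, and ringed points are circles with a known host gene more than 1.5 log2 units from 0 on either axis.

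Host genes were available for a small, fixed set. The table does not name hosts, so 53 circles were listed by circBase identifier with the host gene remembered for each and not checked against circBase here, and 42 of these are in the table. Of the 42, 40 were members, 23 had at least 10 counts and 17 were counted in all 4 libraries. The circles of ITCH and CCDC66 are listed at 0 in every library, and 11 were not analysed here. In MiaPaCa-2 13 of the 40 could be assessed, with none higher in TQ and 2 lower, where 3.98% and 6.55% of all identifiers met the rule. In PANC-1 21 could be assessed, with 1 higher and none lower, against 5.68% and 3.19%. The median log2 ratio was -0.88 in MiaPaCa-2, against -0.13 over all identifiers, and -0.01 in PANC-1, against -0.05. These circles were listed from memory with earlier results of these data known, and they do not sample the members evenly. Their shares and medians are thus not independent of these data. Gene positions below are those of the whole host gene on GRCh38 (GENCODE), since the positions of the circles are not used here.

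Among circles of regulators of small GTPases, 2 could be assessed in each line, 1 of which was lower in MiaPaCa-2 TQ. They were led by ARHGAP12 (chromosome 10, 31805404 to 31928876, minus strand). Its circle hsa_circ_0000231 had 139 counts in MiaPaCa-2 control and 19 with TQ, and 44 and 74 in PANC-1. MiaPaCa-2 control was the highest library, and the other 3 had similar shares. The TQ ratio was 0.327 (99% interval 0.160 to 0.604) in MiaPaCa-2, a call that held under each scaling, and 1.21 (0.736 to 2.04) in PANC-1. The quotient of the MiaPaCa-2 and PANC-1 ratios was 0.272 (0.113 to 0.612). Between controls the circle was lower in PANC-1 with a ratio of 0.317 (0.196 to 0.494). Between the TQ libraries the ratio was 1.18 (0.609 to 2.47) and did not meet the rule. The circle of GDI2, which keeps Rab GTPases in the cytosol, had 20, 3, 11 and 20 counts and met the rule in neither line.

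Of circles of kinases and receptors, 3 could be assessed in each line, and 1 was lower in MiaPaCa-2 TQ. That of ACVR2A (chromosome 2, 147844517 to 147930826, plus strand), a receptor for activins, had 16 and 0 counts in control and TQ of MiaPaCa-2, and 15 and 19 in those of PANC-1. Against the floor it was 2.23-fold lower in MiaPaCa-2 TQ (upper 99% limit of the ratio 0.939). With total counts as the scale this limit was 1.12 and the call was lost. The circle of ERBB2 (chromosome 17, 39687914 to 39730426, plus strand), a receptor tyrosine kinase, had 26, 8, 5 and 7 counts. Between controls it was lower in PANC-1 with a ratio of 0.192 (0.0379 to 0.647). Between the TQ libraries the ratio was 0.264 (0.0570 to 1.17) and did not meet the rule. TQ over control met the rule in neither line. The circle of CSNK1G3, a casein kinase, had 30, 4, 20 and 16 counts, with TQ ratios of 0.319 (0.050 to 1.16) and 0.578 (0.225 to 1.44).

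Of circles of transcription and chromatin genes, MiaPaCa-2 had 1 and PANC-1 6 to assess, and 1 of the 6 was the single host circle higher in TQ. NRIP1 (chromosome 21, 14961235 to 15065936, minus strand) encodes a corepressor of nuclear receptors. Its circle hsa_circ_0004771 had 1 count in the MiaPaCa-2 control, 2 with TQ, and 18 and 68 in the same order in PANC-1. The PANC-1 libraries lay above both MiaPaCa-2 libraries. In PANC-1 TQ over control was 2.73 (1.39 to 5.88), a call made under each scaling, and between controls PANC-1 was 18-fold higher (2.02 to 3790). The circle of ZKSCAN1 (chromosome 7, 100015572 to 100041689, plus strand), a zinc finger gene, had 83, 18, 43 and 64 counts, with TQ ratios of 0.519 (0.243 to 1.0) and 1.07 (0.638 to 1.84). Circles of FOXO3, BPTF, CDYL and SMARCA5 had between 1 and 11 counts in every library. In MiaPaCa-2 these 4 had too few counts to be assessed, as had that of SMARCA5 in PANC-1, and the other 3 did not meet the rule for TQ there. The circle of ZNF652 had 9, 0, 16 and 21 counts.

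Of circles of cytoskeletal and adhesion genes, 2 of 3 assessed were higher in PANC-1 between controls, and none met the rule for TQ. That of FAT1 (chromosome 4, 186587783 to 186726722, minus strand), an atypical cadherin, had 8 counts in MiaPaCa-2 control and 2 with TQ, and 48 and 48 in PANC-1. It was 6.0-fold higher in PANC-1 between controls (2.32 to 19.9) and 7.24-fold between TQ libraries (1.45 to 144). The circle of SPECC1 had 0, 4, 15 and 10 counts and was 5.0-fold higher in PANC-1 between controls against the floor (lower 99% limit 2.36). Between the TQ libraries its ratio was 0.755 (0.157 to 5.44). The circle of CORO1C (chromosome 12, 108645109 to 108731596, minus strand) had a TQ ratio of 1.14 (0.724 to 1.76) for MiaPaCa-2, while that of PANC-1 was 1.07 (0.793 to 1.44).

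Of circles of translation and transport genes, MiaPaCa-2 had 3 and PANC-1 2 to assess, none of which met the rule for TQ. That of XPO1 (chromosome 2, 61477849 to 61538626, minus strand) was close to 1 in every ratio, with TQ over control at 0.910 (0.580 to 1.39) and 0.994 (0.720 to 1.38). The circle of EIF4G3, a translation initiation scaffold (chromosome 1, 20806292 to 21176888, minus strand), had 7, 6, 26 and 49 counts. It was 3.71-fold higher in PANC-1 between controls (1.26 to 14.2). Between the TQ libraries its ratio was 2.47 (0.857 to 10.2) and did not meet the rule. The circle of CNIH4 (chromosome 1, 224356850 to 224379459, plus strand), which helps receptors leave the endoplasmic reticulum, had 18, 11, 2 and 7 counts. It was lower in PANC-1 between controls with a ratio of 0.111 (0.00532 to 0.632).

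The remaining hosts included FNDC3B (chromosome 3, 172039628 to 172401665, plus strand), which gave 2 members. hsa_circ_0001361 had 13 and 0 counts in control and TQ of MiaPaCa-2, and 84 and 117 in those of PANC-1. It was 6.46-fold higher in PANC-1 between controls (3.06 to 15.8) and, against the floor, 11.8-fold higher between TQ libraries (lower 99% limit 6.52). hsa_circ_0006156 of the same gene had 1, 2, 3 and 2 counts, so 1 circle of the gene carried nearly all of these counts. The circle of RELL1 had 0, 4, 11 and 22 counts. It was 3.67-fold higher in PANC-1 between controls against the floor of 3 counts (lower 99% limit 1.62). Between TQ libraries the ratio was 1.66 (0.434 to 10.8). In all, 6 of 19 assessed host circles were higher in PANC-1 controls and 3 lower, where 15.5% and 13.1% of all identifiers met the rule.

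**Figure D5:**
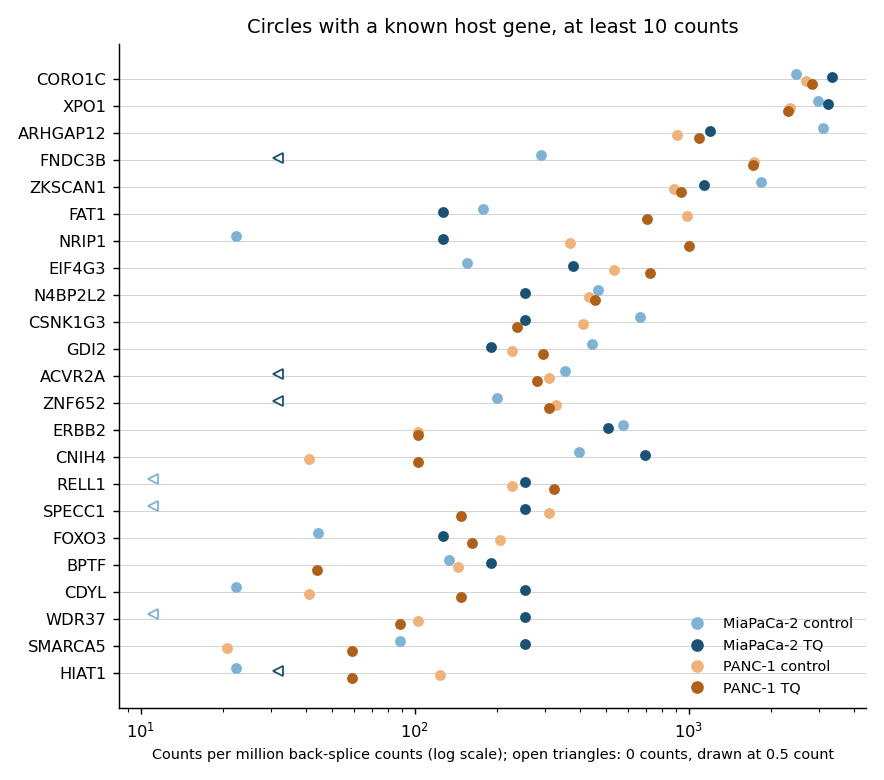
Circles with a known host gene and at least 10 counts over the 4 libraries. The x axis is counts scaled by the library total on a log scale, each point is 1 library and open triangles are libraries with 0 counts; CORO1C and XPO1 lie close together in all 4, ARHGAP12 is highest in MiaPaCa-2 control with 139 counts, and FNDC3B, FAT1 and NRIP1 are higher in both PANC-1 libraries.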

How the data were processed

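Back-splice reads were counted in 4 libraries, 1 for the control and 1 for TQ in each line. The sources used here do not say whether they came from separate cultures. Per the labels' protocols, ribosomal RNA was removed, linear RNA was digested with ribonuclease R and libraries were strand-specific. The deposited table holds whole-number counts per circRNA identifier, used as deposited. Per the submitters' processing notes, edgeR, cutadapt, TopHat, TopHat2, Bowtie2 and FastQC and the build GRCh38.p13 were involved, in roles not given. The circRNA caller is likewise not given in the sources used here. Identical junctions from PCR copies could not be removed.

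Members were identifiers of exactly 7 digits. Another 12 with a suffix, holding 72 counts, were left out and tried as an alternative. The members and the gene lists were chosen with earlier results of these data known. Host genes came from knowledge of circBase identifiers, not from the files. Sequences and positions of circles are not used here.

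Library scales came from TMM on the 827 identifiers that pass filterByExpr. The TQ scale divided by the control scale was 0.418 for MiaPaCa-2 and 1.38 for PANC-1. Ratios have exact 99% conditional binomial intervals. Where a library had 0, the fold sets this library to a floor of 3 counts. It is not a minimum, since the 99% limit can lie nearer 1. Across lines, edgeR's quasi-likelihood test was fitted on all 827 identifiers with Benjamini-Hochberg adjustment, and the scripts were tested on simulated data.

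Named circles were the 10 with the highest mean share, the 2 with most counts per line at 0 in the other line, the 2 per line and direction whose 99% bound lay farthest from 1, those called in both lines, the 2 per direction with the lowest edgeR p, and the fixed host list. Alternatives were other scalings, minimums, intervals and folds, DESeq2, no filter, the tested term alone and each library left out. The last also dropped the other term and filtered the remaining libraries anew. Software was Python 3.11.15 with scipy 1.17.1 and numpy 2.4.6, and R 4.3.3 with DESeq2 1.42.0 and edgeR 4.0.16.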

Additional observations from a re-analysis of the deposited data

Results flagged for a closer look

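These 3 measures moved in opposite directions in the lines when TQ was set against control. In each case there was 1 library per arm and the doses differed.

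The share of back-splice counts held by the members was 1.23 points lower in TQ in MiaPaCa-2 (difference -1.23, 95% interval -2.13 to -0.331) and higher by 0.787 points in PANC-1 (0.210 to 1.36). The intervals cover counting error only, and the difference between the lines was not tested.

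Members detected at the smallest total were 0.761 of control in MiaPaCa-2 TQ and 1.04 of control in PANC-1 TQ. This difference was not tested.

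hsa_circ_0001278 had a TQ ratio of 0.159 in MiaPaCa-2, from 60 and 4 counts in control and TQ, and of 2.28 in PANC-1, from 25 and 79. The 99% interval of the quotient of these ratios was 0.0105 to 0.289. The circle was picked for its opposite calls in the same counts, so an interval that excludes 1 adds no separate support. This interval covers counting error and no replicate spread.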

How the results depend on the processing

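No named circle that met the rule for TQ changed direction under the other 3 scalings, while hsa_circ_0001009, hsa_circ_0001073 (ACVR2A), hsa_circ_0004161 and hsa_circ_0001839 (0.581) lost their MiaPaCa-2 call under total counts, and hsa_circ_0005598 its PANC-1 call with TMM over every identifier (0.526). In MiaPaCa-2, members higher in TQ numbered 19, with 43 under total counts, 11 under TMM over every identifier, 8 with a minimum of 20 counts, 43 with no minimum and 48 with a 95% interval. Lower members numbered 45, with 28 under total counts, 73 under DESeq2 size factors, 120 under TMM over every identifier and 125 with a 95% interval. In PANC-1, a minimum of 20 counts left 20 higher and 16 lower, and a 95% interval gave 59 lower. Between controls that minimum left 92 higher and 84 lower in PANC-1. Fewer members are assessed under a higher minimum.

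By edgeR, members called between lines numbered 0, with 16 higher and 5 lower in PANC-1 by DESeq2, 5 and 1 with no filter, and 49 and 35 with the line term alone. Leaving out each library gave 0 to 203 higher and 0 to 56 lower: 203 and 56 without MiaPaCa-2 control, 62 and 43 without MiaPaCa-2 TQ, 22 and 11 without PANC-1 TQ, and 0 without PANC-1 control. Over all identifiers these were 340 and 92 of 1260, 116 and 64 of 1346, 47 and 31 of 1154, and 1 and 0 of 1195. These fits also dropped the treatment term and filtered the remaining libraries anew, so they differ from the main fit in more than the library. The cause was not tested. The remaining single library of an arm is assumed to vary like the others. TQ called 0 members by edgeR with no filter, where line stayed in the model. With the treatment term alone, or with a library left out, the model had no line term. Differences between the lines then counted as spread, so those fits cannot decide on TQ.

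As a share of circBase counts, members differed by 0.0663 points (-0.974 to 1.11) in MiaPaCa-2, a reversed sign, and 0.320 (-0.357 to 0.996) in PANC-1. At the smallest total, members with at least 2 counts, a measure chosen after seeing the data like the suffix identifiers, were 0.864 of control in MiaPaCa-2 and, reversed, 0.992 in PANC-1. In MiaPaCa-2 TQ, 174 members had at least 10 counts and none had 100, which sets the width of their counting intervals.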
